A study of Mus musculus with 6 samples.

Results

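The BCL2 family genes described here are 10 genes that set the threshold for mitochondrial cell death. They were chosen by name from the family's pro-survival and pro-death members, with earlier results of these data known. For 9 of the 10 a probe set carrying that single gene symbol was found among 19938 measured genes. Bax was not analysed here. Each of the 9 had 1 such probe set, so no choice among probe sets was needed. The values come from 6 Affymetrix Mouse Gene 1.0 arrays of C57B/6 mouse bone marrow cells grown for 6 days in 20 ng/ml recombinant GM-CSF, a cytokine that drives myeloid growth and differentiation. The labels name 3 arrays dendritic and 3 macrophage. Both populations came from the same kind of culture, were unstimulated and carried no genetic change that the labels record. The labels used here do not give the markers by which the populations were separated, or whether replicates came from separate mice or cultures. P-values thus measure only the spread between these arrays, which may be technical. The study compared the expression profiles of the populations, and the question followed here is how pro-survival and pro-death genes differed between them.

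Proteins of the BCL2 family meet at the outer mitochondrial membrane. Bax and Bak open pores in it and release cytochrome c, which starts the caspase cascade. Bcl-2, Bcl-xL and Mcl-1 hold them back, and the BH3-only proteins Bim, Bid, Puma and Noxa bind and neutralise the pro-survival proteins, with some also activating Bax and Bak directly. The balance is known to limit the life span of myeloid cells, and growth factors such as GM-CSF act on it. Several of these proteins, Mcl-1 and Noxa among them, are also controlled by rapid protein turnover, which an array does not measure.

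The clearest differences lay in 2 members that stood higher in the dendritic population, Bcl2l14 (6.25-fold) and the BH3-only gene Pmaip1, which encodes Noxa (4.84-fold). The pro-survival gene Bcl2 was lower (1.48-fold) at the edge of the threshold. The other 6 measured members did not pass, among them Bcl2l1 (Bcl-xL), Mcl1, Bak1, Bcl2l11 (Bim), Bid and Bbc3 (Puma). Here a gene is called when its limma p, adjusted over the 19938 genes, is below 0.05. Of the 9 members, 2 were called higher and 1 lower, where 9.98% of all genes were called higher and 11.6% lower (21.6% in either direction). The median difference over the 9 members was -0.020 on the log2 scale, and 0.034 over all genes tested. Members differed in both directions, so this median does not describe the single genes. Bcl2l14 had the 124th and Pmaip1 the 180th highest difference of the 19938 genes.

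**Figure D1:**
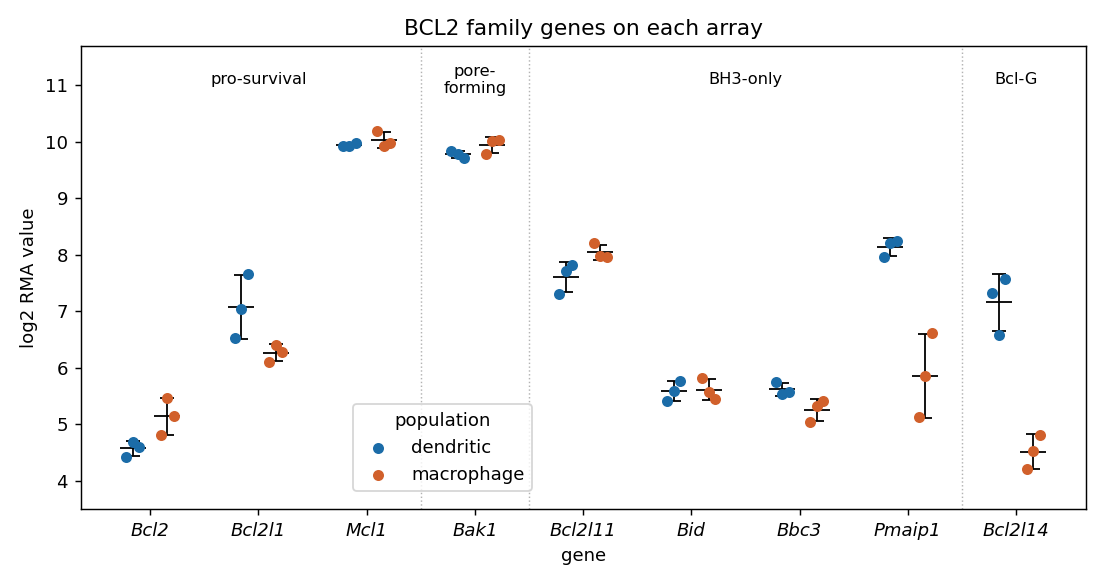
Deposited log2 RMA values (vertical axis) of the 9 measured BCL2 family genes (horizontal axis, grouped by role) on the 3 dendritic and 3 macrophage arrays; points are arrays, and bars are the mean ± SD (n = 3). Pmaip1 and Bcl2l14 are separated by more than 1 log2 unit between the nearest arrays of the populations, and levels of different genes rest on different probes and are not comparable.

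Bcl2l14 encodes Bcl-G, a relative with a BH3 region whose part in cell death is debated. Its RefSeq promoters, the 250 bases before each of 2 annotated starts on the plus strand of GRCm38.p6, are shown because this gene had the largest difference of the family. They are set beside the Bcl2l1 promoter that holds the one NF-kB consensus match found among the pro-survival members and the promoter of Bcl2. Capitals mark that match, and all other bases are in lower case.
Bcl2l14 chr6:134396079-134396328, plus strand: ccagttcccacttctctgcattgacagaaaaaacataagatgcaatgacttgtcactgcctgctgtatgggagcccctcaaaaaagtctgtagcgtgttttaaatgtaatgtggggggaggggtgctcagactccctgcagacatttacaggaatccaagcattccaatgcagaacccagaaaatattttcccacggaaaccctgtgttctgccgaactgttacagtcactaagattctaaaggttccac
Bcl2l14 chr6:134414178-134414427, plus strand: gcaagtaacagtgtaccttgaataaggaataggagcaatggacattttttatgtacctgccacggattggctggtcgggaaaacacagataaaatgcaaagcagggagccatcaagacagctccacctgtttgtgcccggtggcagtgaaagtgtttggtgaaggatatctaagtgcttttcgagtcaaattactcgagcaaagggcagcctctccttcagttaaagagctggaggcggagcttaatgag
Bcl2l1 chr2:152830718-152830967, minus strand: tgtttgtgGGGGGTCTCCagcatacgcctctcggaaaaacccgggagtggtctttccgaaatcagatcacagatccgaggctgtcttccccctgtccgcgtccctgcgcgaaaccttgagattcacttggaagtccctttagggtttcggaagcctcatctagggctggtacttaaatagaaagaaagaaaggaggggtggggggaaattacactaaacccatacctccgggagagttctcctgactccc
Bcl2 chr1:106714291-106714540, minus strand: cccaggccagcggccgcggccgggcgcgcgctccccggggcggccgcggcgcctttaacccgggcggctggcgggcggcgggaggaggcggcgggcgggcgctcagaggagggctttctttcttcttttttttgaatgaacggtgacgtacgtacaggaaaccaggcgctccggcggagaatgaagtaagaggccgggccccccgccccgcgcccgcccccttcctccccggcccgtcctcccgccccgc

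The promoters differ in composition. Both Bcl2l14 promoters held few CpG, with 3 and 6 CpG dinucleotides and a GC content of 45.6% and 46.8%. The Bcl2 promoter held 36 CpG and 74.8% GC. Over all 32851 promoters of the table the median was 6 CpG and 52.4% GC, so the Bcl2l14 promoters were at or below the median and that of Bcl2 well above it. Promoters were listed for 9 of the 10 genes (15 promoters in all). None was listed for Pmaip1, so no match could be sought there. The CpG count of the other members with a promoter ranged from 0 at a Bcl2l1 start to 37 at a Bbc3 start. Matches were searched on both strands, with overlapping matches counted, for the NF-kB consensus, the STAT core TTCNNNGAA, the FOXO core TGTTTAC, the E-box CACGTG and the PU.1 core GAGGAAGT. These occurred in 3.9%, 7.02%, 3.17%, 6.02% and 2.44% of all promoters. Neither Bcl2l14 promoter held any of them. The NF-kB consensus was found 242 bases before the shown Bcl2l1 start and in a Bbc3 promoter, the FOXO core in a Bcl2l11 and another Bbc3 promoter, the E-box in a Bbc3 and the Bax promoter, and the PU.1 core in the Bak1 promoter. A match is a run of letters and no evidence of binding, and a window without one says nothing about the factor.

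Bcl2l14 (probe set 10542287) read 7.33, 6.59 and 7.57 log2 units on the dendritic arrays and 4.21, 4.52 and 4.82 on the macrophage arrays. Every dendritic array was above every macrophage array, by at least the gap from 4.82 to 6.59. The means were 7.16 ± 0.51 and 4.52 ± 0.31 (SD, n = 3 each). The difference was 2.64 ± 0.26 (SE; 95% interval 2.06 to 3.23; limma adjusted p = 9.09e-05), and the call held in all 17 alternatives (adjusted p 1.31e-05 to 0.00117). The macrophage values lay near the median probe set of an array (4.79 to 4.96). There are no detection calls, so whether the macrophage population expressed the gene is not known, and the fold is a value on the compressed RMA scale. The 3 genes with profiles nearest to it over the 6 arrays, by root mean square distance of centred log2 values, were Rnf157 (0.13), the tight junction gene Cldn10 (0.15) and Mtss2 (0.16). All 3 were called higher, by 2.62, 2.56 and 2.37 log2 units, which follows from choosing them for likeness to Bcl2l14 on the same arrays.

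Among the BH3-only genes, Pmaip1 (probe set 10456357) was called. Noxa binds chiefly Mcl-1 and the A1 proteins. Its log2 values were 7.96, 8.21 and 8.24 on the dendritic arrays and 5.13, 5.85 and 6.61 on the macrophage arrays. The populations did not overlap, and the spread was wider in the macrophage arrays (5.86 ± 0.74) than in the dendritic arrays (8.14 ± 0.16; SD, n = 3). The dendritic minus macrophage difference was 2.27 ± 0.32 (SE; 95% interval 1.56 to 2.99; limma adjusted p = 0.000783). It stayed between 1.91 and 2.65 when any array was left out, and the call held in all 17 alternatives (adjusted p 6.57e-05 to 0.00584).

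The other BH3-only genes differed less and in both directions. Bcl2l11, whose product Bim is known as the main BH3-only protein in growth factor withdrawal, read 7.31, 7.72 and 7.81 on the dendritic and 8.20, 7.98 and 7.97 on the macrophage arrays. All dendritic values were below all macrophage values, but the difference of -0.43 ± 0.16 (95% interval -0.80 to -0.066) was not called (limma adjusted p = 0.0986). It was -0.28 without dendritic replicate 1 (adjusted p = 0.190) and -0.20 without replicate 1 of either population (adjusted p = 0.335). Bbc3, whose product Puma responds to p53 and to cytokine loss, read 5.75, 5.54 and 5.57 against 5.05, 5.33 and 5.42. It too did not overlap, the other way round, and was not called (0.36 ± 0.14, 95% interval 0.035 to 0.68, limma adjusted p = 0.121). Without both replicate 1 arrays it was 0.18 (adjusted p = 0.389). Bid links death receptors to mitochondria after cleavage by caspase-8. Its values were 5.42, 5.59 and 5.78 against 5.82, 5.58 and 5.45, which overlapped fully (-0.020 ± 0.15, 95% interval -0.36 to 0.32, limma adjusted p = 0.965), and the sign turned under other scalings. Non-overlap is weak evidence here, since 17.3% of all genes had every dendritic array above every macrophage array and 16.7% every one below. Together these make 34% of genes. Of the 9 members, 4 stood above and 2 below in this sense.

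Bak1, the measured pore former, read 9.85, 9.78 and 9.72 on the dendritic arrays and 9.79, 10.03 and 10.04 on the macrophage arrays. The ranges overlapped, and the difference was -0.17 ± 0.13 (limma adjusted p = 0.477). The 95% interval from -0.45 to 0.12 sets the size of change that these arrays allow.

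The pro-survival genes did not move together. Bcl2 (probe set 10357043) read 4.43, 4.70 and 4.60 on the dendritic and 4.82, 5.46 and 5.15 on the macrophage arrays. The nearest arrays were 4.70 and 4.82, so the populations did not overlap but came close. The difference was -0.57 ± 0.18 (95% interval -0.97 to -0.17; limma adjusted p = 0.0495). The call was lost on omitting any of the 5 arrays other than macrophage replicate 1 (adjusted p 0.0796 to 0.194), and in 8 of 16 alternatives in all (0.00574 to 0.194). These values lie around the array median, so both populations may be near the background. Its nearest profiles were Gask1b (distance 0.050), the ATP synthase gene Atp5g1 (0.057) and Slfn9 (0.058), with differences of -0.53, -0.57 and -0.57. Like Bcl2, these genes lie close to the threshold, which follows from choosing them for likeness to Bcl2 on the same arrays. The Gask1b and Atp5g1 calls were also lost without any array but macrophage replicate 1, and that of Slfn9 without dendritic replicate 1 or 3 or macrophage replicate 2 or 3 (highest limma adjusted p of the 3 genes, 0.179).

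Bcl2l1 (probe set 10488655) differed the other way and just missed the threshold. Its product Bcl-xL is a classic target of cytokine signalling through STAT5. The values were 6.53, 7.04 and 7.66 on the dendritic arrays and 6.11, 6.41 and 6.29 on the macrophage arrays. All dendritic arrays were above all macrophage arrays, with the dendritic arrays spread over more than 1 log2 unit. The difference was 0.80 ± 0.25 (1.75-fold, 95% interval 0.23 to 1.38, limma adjusted p = 0.0524). With the replicate number as a block it was called (adjusted p = 0.0162), the pairs differing by 0.42, 0.63 and 1.37. In all it was called in 9 of 17 alternatives (0.00462 to 0.124), among them the setting added later that is described below. Without dendritic replicate 1 the difference was 1.08 (adjusted p = 0.00519), and without dendritic replicate 3 it was 0.51 (adjusted p = 0.124). The array in each population with the lowest Bcl2l1 value, replicate 1, also had the highest mean log2 level of 8 neutrophil markers, 7.68 in the dendritic and 7.90 in the macrophage population against 6.64 to 6.97 on the other 4 arrays. With both of these arrays left out, which was added once the data had been seen, the Bcl2l1 difference was 1.00 (limma adjusted p = 0.00676). The same setting made the differences of Bcl2l11 and Bbc3 smaller, as given above, and that of Bak1 larger (-0.28, adjusted p = 0.172), and the part of neutrophils in these values was not tested.

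Mcl1, needed for the survival of many blood cells, read 9.94, 9.93 and 9.99 on the dendritic and 10.20, 9.93 and 9.98 on the macrophage arrays. Apart from macrophage replicate 1 the 5 arrays lay within 0.1 log2 unit. The difference was -0.084 ± 0.13 (limma adjusted p = 0.777), and the 95% interval from -0.37 to 0.20 stays far from the difference of 2.27 seen for Pmaip1.

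The ratio of a pro-survival to a pro-death gene within an array shows whether known binding partners differed unequally. The ratio itself depends on the probes, so its difference between populations is what can be read. For 7 pairs, chosen from known binding after the values were seen, the smallest p that an exact 2-sided permutation test of 3 against 3 arrays can give is 0.1, and none can pass the threshold. Mcl1 minus Pmaip1 was 1.98, 1.72 and 1.74 log2 units on the dendritic arrays and 5.07, 4.08 and 3.37 on the macrophage arrays. That is a difference of -2.36 ± 0.50 (SE, n = 3 each; exact p = 0.1, adjusted over 7 pairs 0.175), and nearly all of it comes from Pmaip1. Bcl2l1 minus Bcl2l11 went the other way, at -0.78, -0.68 and -0.16 against -2.09, -1.56 and -1.68, a difference of 1.24 ± 0.25 (exact p = 0.1). Bcl2l1 minus Bak1 differed by 0.97 ± 0.36 and Mcl1 minus Bcl2l11 by 0.35 ± 0.15, again without overlap (exact p = 0.1 each). Bcl2 minus Bcl2l11 (-0.14 ± 0.27, exact p = 0.6), Mcl1 minus Bak1 (0.083 ± 0.17, exact p = 0.7) and Bcl2l1 minus Bbc3 (0.45 ± 0.38, exact p = 0.4) overlapped. Since the pairs were picked with the values known, these ratios are only a description of the 6 arrays.

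**Figure D2:**
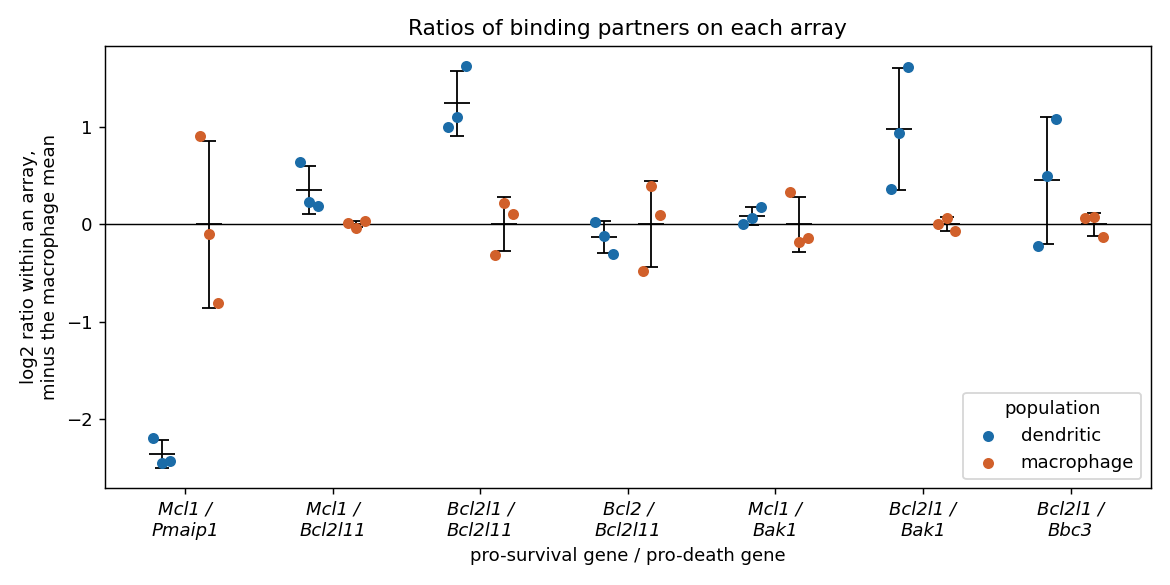
Log2 ratio of a pro-survival to a pro-death gene within each array, minus the mean of the 3 macrophage arrays (vertical axis), for 7 pairs (horizontal axis); points are arrays, and bars are the mean ± SD (n = 3 per population). The dendritic arrays lie about 2.36 below the macrophage mean for Mcl1 over Pmaip1 and 1.24 above it for Bcl2l1 over Bcl2l11.

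Of 16 further relatives of the family 13 were measured, of which 2 were higher, 2 lower and 9 not called, with a median difference of 0.18. These counts are near the share over all genes (9.98% called higher and 11.6% lower). The BH3-only gene Bmf was higher, at 8.32, 8.51 and 8.39 on the dendritic against 7.32, 7.08 and 7.43 on the macrophage arrays (1.13 ± 0.14, limma adjusted p = 0.000346). The A1 gene copy Bcl2a1c was also higher (1.25 ± 0.17, limma adjusted p = 0.000750). Its near-identical copies can share its probes, so it is uncertain which copy was measured. Whether this copy makes a working pro-survival protein cannot be read from the array. The lower genes were the hypoxia-inducible mitophagy gene Bnip3 (-2.46 ± 0.42, adjusted p = 0.00271) and Bad, a BH3-only gene regulated by growth factor kinases (-0.51 ± 0.13, adjusted p = 0.0184). Bnip3 read 8.44, 6.57 and 7.56 on the dendritic and 10.46, 9.52 and 9.96 on the macrophage arrays, a wide spread without overlap. The Bad call was lost without dendritic replicate 2 (limma adjusted p = 0.0675), macrophage replicate 2 (0.0847) or macrophage replicate 3 (0.0755), and with 75th percentile centring (0.0608) (all alternatives, 0.00315 to 0.0847).

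**Figure D3:**
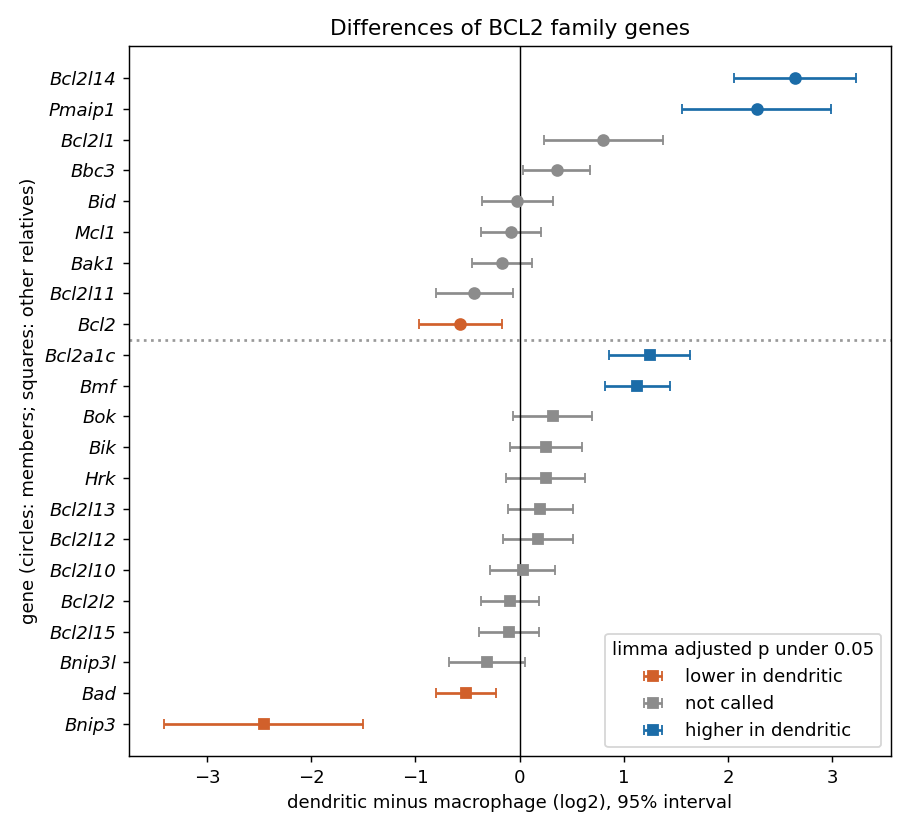
Dendritic minus macrophage difference on the log2 scale with its 95% interval from limma (horizontal axis) for the 9 measured members (circles) and 13 other relatives (squares); colour gives the call at an adjusted p under 0.05 (n = 3 arrays per population). Bcl2l14 (2.64), Pmaip1 (2.27), Bcl2a1c (1.25) and Bmf (1.13) lie to the right, and Bnip3 (-2.46), Bcl2 (-0.57) and Bad (-0.51) to the left.

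Downstream of the mitochondrion, 2 of 6 measured apoptosome and caspase genes were lower in the dendritic population and none higher (median -0.36), where 9.98% of all genes were called higher and 11.6% lower. With the replicate block, with array weights or without replicate 1 of either population, 3 were lower. The 2 genes were Cycs, which encodes the cytochrome c that the pores release (-0.89 ± 0.14, limma adjusted p = 0.00160), and the executioner caspase Casp6 (-0.95 ± 0.21, adjusted p = 0.0103). The scaffold Apaf1 (-0.087) and the initiators Casp9 (0.22) and Casp8 (-0.17) were not called. Among 8 inhibitor of apoptosis genes and their antagonists, 3 were higher and 1 lower, with a median of -0.17, to be read against the same shares over all genes. Birc2 (cIAP1), a ubiquitin ligase of TNF receptor signalling, had the largest difference of all genes in these lists, at 9.53, 9.34 and 9.28 against 6.74, 6.50 and 6.42 (2.83 ± 0.14, limma adjusted p = 1.64e-06). The mitochondrial protease Htra2, which antagonises these inhibitors, was also higher (0.92 ± 0.12, adjusted p = 0.000565), and Naip2, a sensor component of the NAIP inflammasome, was lower (-1.24 ± 0.24, adjusted p = 0.00522). The caspase inhibitor Xiap was not called (-0.25 ± 0.21, adjusted p = 0.529). The lower genes of this list numbered 2 with the replicate block, with array weights, without macrophage replicate 1 and without both replicate 1 arrays.

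At the death receptors and their adaptors, a list that also holds Dffa and Dffb, 2 of 9 measured genes were higher and 1 lower. The median was 0.45, and 9.98% of all genes were called higher and 11.6% lower. The caspase-8 inhibitor Cflar (1.39 ± 0.13, limma adjusted p = 6.48e-05) and the adaptor Traf2 (1.18 ± 0.16, adjusted p = 0.000556) were higher, and the TNF receptor Tnfrsf1a was lower (-1.66 ± 0.12, adjusted p = 1.86e-05). The higher genes of this list numbered 5 with the replicate block or 75th percentile centring, and 4 with quantile normalization again, the 30th percentile filter, an intensity trend or array weights. The list of regulators of BCL2 family transcription and turnover, which also holds the Vdac channels, had 17 measured genes. Of these, 6 were higher and 2 lower (median 0.11), to be read against the same shares over all genes. The NF-kB subunit Rel (2.29 ± 0.15, limma adjusted p = 7.83e-06) and Stat3 (1.39 ± 0.15, adjusted p = 0.000166) led the higher genes, and the mitochondrial channel Vdac1 (-0.66 ± 0.14, adjusted p = 0.00831) and Foxo3 (-0.49 ± 0.15, adjusted p = 0.0453), a factor known to drive Bcl2l11, were lower. The Foxo3 call was lost on omitting any of the 5 arrays other than dendritic replicate 1 (adjusted p 0.0682 to 0.165), and with quantile normalization again (0.0590), 75th percentile centring (0.0919), all probe sets tested (0.0877) or an intensity trend (0.0540), within a range of 0.0217 to 0.165. The lower genes of the regulator list numbered 4 with the replicate block, array weights or the filter at the median. They numbered 1 with 75th percentile centring, all probe sets tested, or without macrophage replicate 1, 2 or 3 or dendritic replicate 2 or 3. Over the 53 of 61 pathway genes measured, relatives included, 13 were higher and 8 lower, against the 9.98% and 11.6% of all genes, with a median of -0.021. The 8 others were not analysed here.

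**Figure D4:**
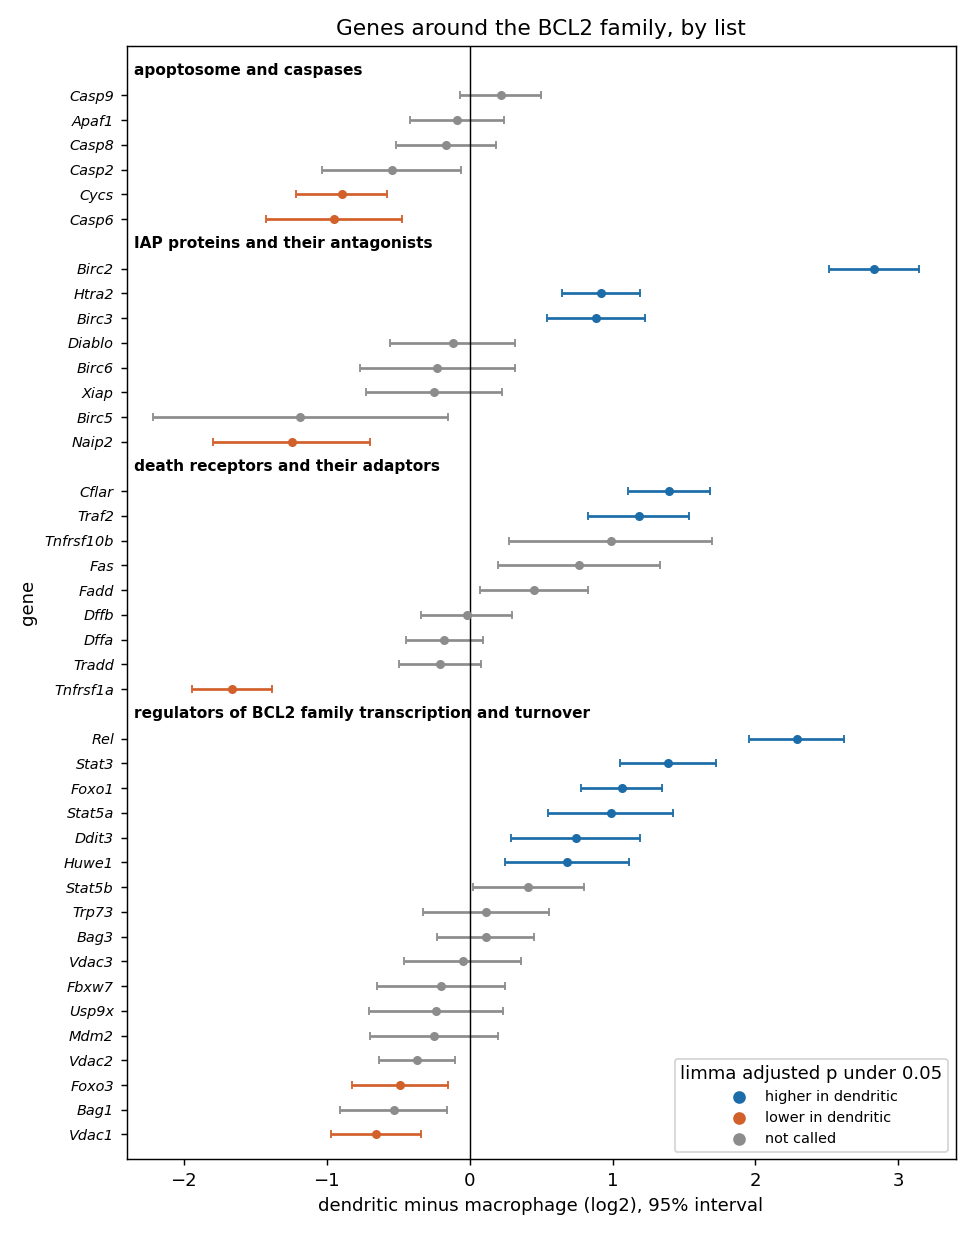
Dendritic minus macrophage difference on the log2 scale with its 95% interval from limma (horizontal axis) for the measured genes of 4 lists around the BCL2 family (vertical axis, sorted within each list); colour gives the call at an adjusted p under 0.05. Birc2 (2.83), Rel (2.29) and Cflar (1.39) are the highest in their lists, and Tnfrsf1a (-1.66) and Naip2 (-1.24) the lowest.

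The macrophage list and most of the dendritic cell list followed the labels. Of 8 dendritic cell markers 6 were higher in the dendritic arrays and 1, Itgax (CD11c), was lower. H2-Ab1 was lower on every dendritic array but not called (-0.39, limma adjusted p = 0.0745). All 7 measured macrophage markers were lower. The mean log2 level of the macrophage markers was 5.25 to 5.33 on the dendritic and 9.80 to 10.01 on the macrophage arrays, and that of the dendritic markers was 9.48 to 9.69 and 6.48 to 6.97. Of 8 neutrophil markers 1 was lower and none higher (6.64 to 7.68 on the dendritic, 6.76 to 7.90 on the macrophage arrays). Single genes of the T cell list (Cd8a higher, Cd28 lower, of 6), the B cell list (1 higher of 5) and the mast cell list (1 higher of 6, Kit) were called. None of the NK cell, eosinophil and erythroid lists (12 genes) was called. The part of other cells in the differences above was not tested. In bulk RNA a change of the level per cell and a change in the share of cells that express a gene cannot be told apart.

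**Figure D5:**
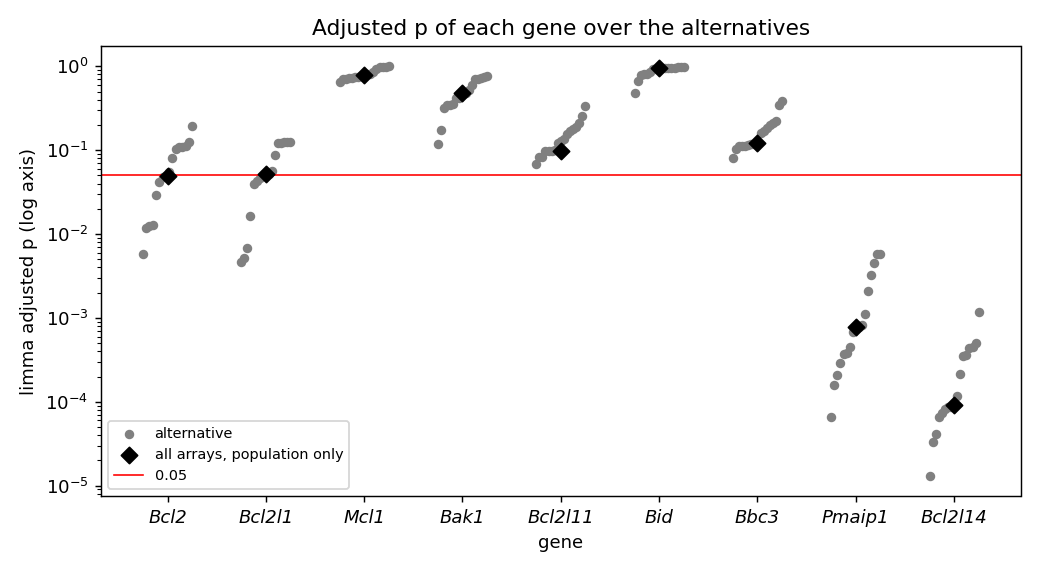
Limma adjusted p (vertical log axis) of each measured member (horizontal axis) with all arrays and population as the only term (black diamonds) and under each alternative (grey points, sorted; 17 per gene, 16 for Bcl2); the red line is 0.05. Pmaip1 and Bcl2l14 stay below the line throughout, Bcl2 and Bcl2l1 lie on both sides of it, and the other 5 genes stay above it.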

How the data were processed

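The deposited values are log2 values, given for 35556 probe sets on each array and made by the authors with RMA (background correction, quantile normalization, probe summary) in R 3.0.2, per the submitters' processing notes. From each sample 6 ug total RNA was labelled, per the labels' protocols. The sources used here name neither the arrays on which RMA was run nor any filter. Exactly 1 symbol was held by 21789 probe sets in the platform's gene table. Symbols were checked by Entrez identifier in a RefSeq table (GRCm38.p6), and 0 changed. The probe set with the highest mean stood for a gene. Probe sets with several symbols, those of the Bcl2a1 copies included, were not used for naming.

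Differences were tested with limma 3.58.1 (lmFit, eBayes, 2-sided) in R 4.3.3 on all 6 arrays, with a single term for population and Benjamini-Hochberg adjustment over 19938 genes. The same limma steps were also run on simulated data with independent noise and no pairing of arrays. Tables and figures were made with Python 3.11.15, pandas 2.3.3 and matplotlib 3.10.9. Depth does not apply to arrays, and their number limits the precision. The members and lists were chosen with earlier results of these data known. Named genes are all members, up to 2 called genes per direction of each pathway list, and the 3 nearest profiles of the called members with the highest and lowest difference. The uncalled genes Apaf1, Casp9, Casp8 and Xiap and the markers Itgax, H2-Ab1, Cd8a, Cd28 and Kit were named after their values were seen.

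To check whether replicate numbers pair the samples, deviations from the population means were correlated between arrays of one number, giving 0.385, 0.147 and 0.272. All were over 0.1, so pairing by number was fitted as a block. That fit was an alternative only, and the main fit left the pairing out (4312 genes called, 5207 with the block). The pairing rests mostly on number 1, since dendritic replicate 2 correlated at 0.155 with macrophage replicate 3, and no label explains the numbers. Alternatives were the number as a block, 2 other scalings, 2 filters on level, the mean of probe sets, all probe sets, 2 variance models, array weights and each array left out. These 16 were planned. Leaving out both replicate 1 arrays was added once the data had been seen, and it is counted among the 17.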

Additional observations from a re-analysis of the deposited data

How the results depend on the processing

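The 2 members called higher in the dendritic population were 2 or 3 in all 17 alternatives, the third being Bcl2l1 where it passed. The member called lower, Bcl2, was 1 with all arrays, and 0 with 75th percentile centring, with all probe sets tested, with an intensity trend and with genes under the median of level left out, where Bcl2 itself was not tested. Leaving out 1 array gave 0 to 1. With the replicate block Bcl2l1 (0.80, limma adjusted p = 0.0162) gained its call and no other member's call changed. Bid changed sign with quantile normalization again (0.012), 75th percentile centring (0.035) and array weights (0.084), and ranged from -0.11 to 0.17 over the settings that leave arrays out. Mcl1 ranged from -0.14 to 0.0068 over the same settings. Neither was called in any of these. The counts over all pathway genes stayed within 1.5 times of those with all arrays in every alternative. Over all genes, 4312 calls became 3311 without macrophage replicate 2 and 5901 with array weights, the lowest and highest of the alternatives. Centring on the 75th percentile turned the split from 1990 higher and 2322 lower to 2094 and 2032. The number of arrays limits what can be seen of small differences, and dim genes such as Bcl2 have no detection calls.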
